A study of Danio rerio with 16 samples.

Results

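The cytosolic ribosomal protein genes were followed through RNA sequencing of eyes and brains dissected from wildtype zebrafish (Danio rerio) larvae. They were taken by name: every protein-coding gene of the tables whose symbol begins with rpl or rps and a number (rplp0 and its relatives included), together with rpsa and without the rps6k kinases. The rule returned 83 genes of 31901 in the tables, under 81 distinct symbols, since rpl26 and rpl37 each stand on 2 gene IDs. Of the 83 genes, 48 carry names of the large subunit and 33 names of the small subunit. The other two are rpl7l1, a relative of rpl7, and rps19bp1, named for a protein that binds Rps19 and is no part of the ribosome. The name rule used no measured value.

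The study asked how phenol isopropylated phosphate (IPP), an organophosphate flame retardant, leads to deficits of the larval photomotor response, the swimming response to changes of light. Larvae were kept from 6 to 120 hours post fertilization (hpf) in 0.2 uM IPP with 0.02% DMSO, or in 0.02% DMSO alone, so that both groups carry the solvent. Each of the 4 groups (eye DMSO, eye IPP, brain DMSO, brain IPP) holds 4 libraries, 16 in all. No label ties a library to its own clutch or pool of larvae, so p-values measure the spread between these libraries, which may be technical.

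Each cytosolic ribosome joins a small subunit, which reads the message, to a large subunit, which forms the peptide bond. Every subunit is built in the nucleolus from ribosomal RNA and ribosomal proteins, whose messages share a 5' terminal oligopyrimidine start that lets TOR signalling set their translation together. Outside the ribosome some of the proteins bind Mdm2, the inhibitor of p53, among them Rpl5 and Rpl11, which form a small particle with 5S ribosomal RNA. In zebrafish, loss of a copy of many of these genes is known to predispose to tumours, and knockdown of several disturbs the development of the head and eye.

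Levels are FPKM (fragments counted on a gene, divided by the length of its model and by a library total, as scaled by the authors). Each tissue's table has its own scaling, so eye and brain levels stand side by side with no test between them. Reads assigned to genes ranged from 9.62 M to 16.3 M per library. Brain IPP 3 and brain IPP 4 were the deepest, at 16.3 M each, and all other libraries held 9.62 M to 12.5 M. The part of this depth in the values of brain IPP 3 and brain IPP 4 was not tested. The tissue labels held against their markers: 11 eye marker symbols, among them rho and gnat2 of photoreceptors, summed to 17369 to 22903 FPKM in eye libraries and to 8.3 to 102 FPKM in brain libraries. Brain markers such as foxg1a and eomesa summed to 234 to 347 FPKM in brain and 30.1 to 48.4 FPKM in eye. Brain DMSO 1 and brain IPP 4 stood apart by 29 liver and gut genes, which summed to 6357 and 10414 FPKM there and to 11.3 to 30.4 FPKM in the other brain libraries. Skeletal muscle genes summed to 990 FPKM in brain DMSO 4 and 717 FPKM in brain IPP 4, against 53.2 to 205 FPKM in the other brain libraries. The 102 FPKM of eye markers also belonged to brain IPP 4, where the other brain libraries held 8.3 to 31.5 FPKM. The libraries numbered IPP 3 and IPP 4 stood apart in both tissues by p53 target genes, with sums of 422 and 353 FPKM in eye and 429 and 324 FPKM in brain, against 152 to 249 FPKM in the rest. The counts above 0 of the class and of the pathway lists are therefore also given without IPP 3 and IPP 4, and without brain DMSO 1 and IPP 4. Brain DMSO 4 stayed in both of these runs. In bulk tissue, fewer cells of a type and less RNA per cell cannot be told apart.

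The 83 genes lie on 24 chromosomes. Chromosomes 3, 6 and 19 hold 7 each, and 5 chromosomes hold 1 each. Their gene models are short, with a median of 1245 bases (346 to 6136) against 2163 bases for all protein-coding genes. Many host small nucleolar RNAs (snoRNAs), the guides that direct modification of ribosomal RNA and are cut out of introns of ribosomal protein messages: 23 of the 83 (27.7%) overlapped an annotated snoRNA gene, with 55 snoRNA entries in all, against 77 of 25431 protein-coding genes (0.303%). The gene rpl4 held 7 entries, and rps3, rps7 and rpl7a held 4 each. Median eye FPKM was 493 for the 23 hosts and 355 for the rest. In brain these medians were 366 and 330 FPKM. Of the 83, 22 also overlapped another protein-coding gene, 10 on the same strand and 15 on the opposite strand. The share of all protein-coding genes that do so was not computed, so whether this count is a trait of the class cannot be told. Strand use is unclear, as the preparation is described in a directional and in a non-directional form, and values of genes that overlap another are uncertain. Copies of near-identical sequence may also share reads. Coordinates are those of the deposited tables, whose genome build the labels do not name.

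As a class the genes stood near the top of the expressed range in both tissues. Their median was 393 FPKM in eye, where the median of all genes tested was 5.15 FPKM, and 342 FPKM in brain, where it was 5.71 FPKM. Of the 100 genes with the highest mean FPKM, 28 in eye and 30 in brain were ribosomal protein genes. Within the class, levels ran over several orders of magnitude: in eye 13 genes had a mean of at least 1000 FPKM, 50 lay from 100 to 1000, 13 from 10 to 100 and 7 under 10. In brain the counts were 9, 54, 13 and 7. The order of the genes was nearly the same in both tissues (Spearman's rho 0.995 across the 83 genes, a description over genes of shared length and annotation, not over independent samples).

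**Figure D1:**
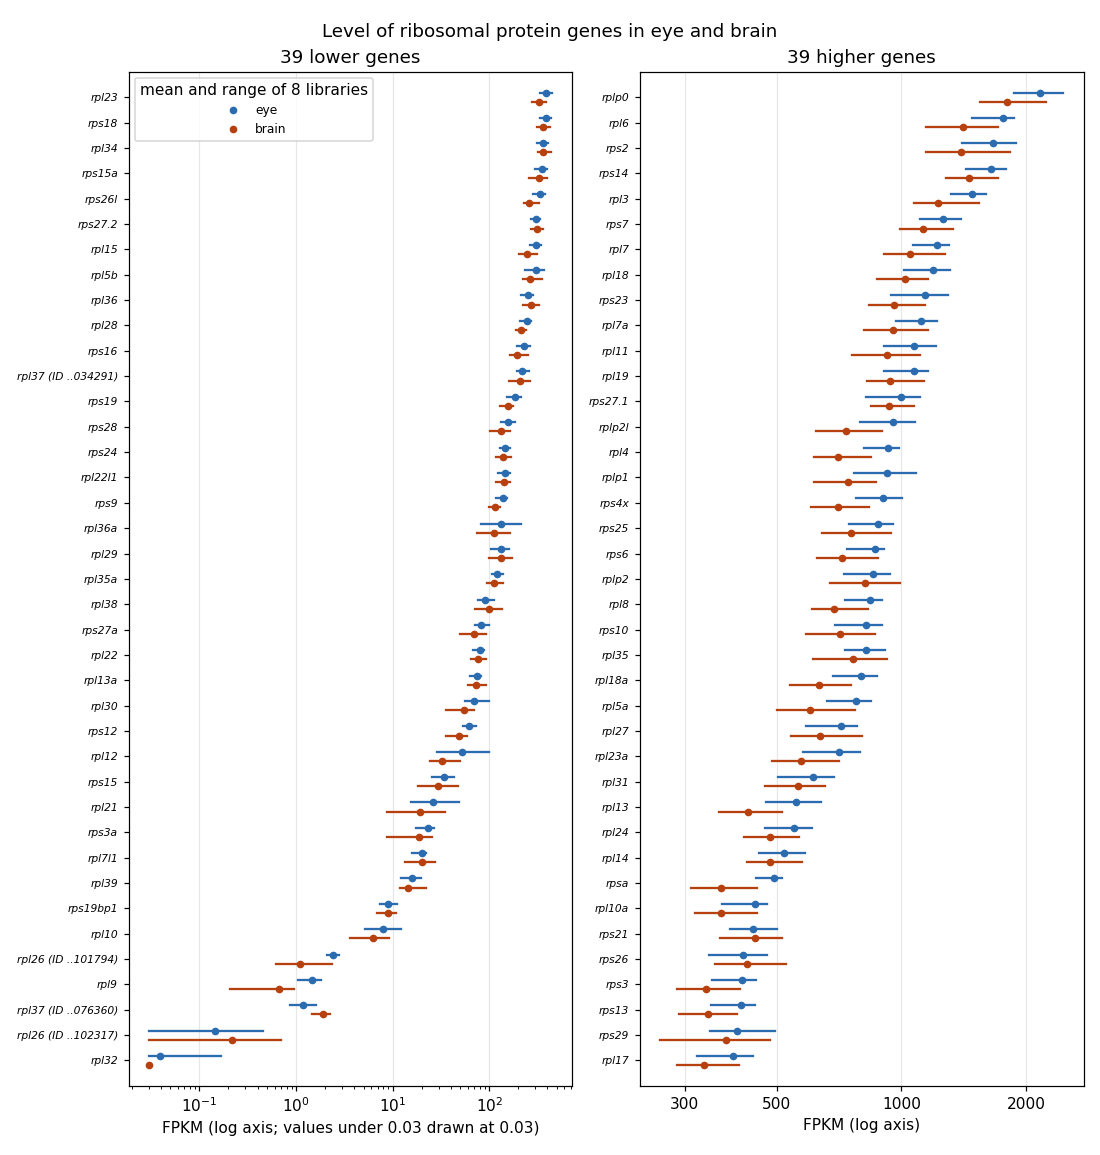
Mean FPKM (points) and lowest to highest library (lines) of 78 of the 83 genes over the 8 libraries of eye (blue) and of brain (orange), on log axes, sorted by eye level. Genes that share a symbol carry the end of their gene ID. The left panel ends in a tail of 7 genes under 10 FPKM, and for most genes the lines of eye and brain are short and close together.

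The gene with the highest level was rplp0 (ENSDARG00000051783, chromosome 5, 1950660 to 1963498, minus strand), the scaffold of the P stalk on which elongation factors land. Its eye levels were 2317, 2361, 2459 and 1873 (DMSO) and 2022, 1886, 2076 and 2251 (IPP) FPKM. Its brain levels were 1844, 1734, 1547 and 1689.5 (DMSO) and 1622, 1731, 1948 and 2232 (IPP) FPKM. Values of the DMSO and IPP libraries overlapped in both tissues, and rplp0 ranked first among the 83 in each. The acidic stalk proteins that sit on it followed at roughly similar levels: mean FPKM in eye was 923 for rplp1, 851 for rplp2 and 956 for its relative rplp2l, and in brain 741, 814 and 734.

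Next in eye came rpl6 (ENSDARG00000058451, chromosome 8, 2493794 to 2506384, minus strand), of the large subunit, with 1696, 1869, 1752 and 1725 (DMSO) and 1864, 1476, 1846 and 1867 (IPP) FPKM. In brain it had 1459, 1299, 1147 and 1453 (DMSO) and 1304, 1370.5, 1515 and 1709 (IPP) FPKM. All IPP libraries of eye lay between 1846 and 1867 FPKM except IPP 2, at 1476. The small subunit gene rps2 (ENSDARG00000077291, chromosome 3, 18398876 to 18403179, plus strand), whose protein lines the entry of the message, had 1734, 1889, 1773 and 1553 (DMSO) and 1469.8, 1396, 1744 and 1770.3 (IPP) FPKM in eye and 1397, 1287, 1145 and 1320.3 (DMSO) and 1245, 1356, 1556 and 1829 (IPP) FPKM in brain. The gene rps14 (ENSDARG00000036629, chromosome 21, 33454147 to 33458430, plus strand), whose human counterpart is lost in the 5q deletion syndrome of bone marrow, had 1629, 1792, 1781 and 1549 (DMSO) and 1529.6, 1430.3, 1740.2 and 1682 (IPP) FPKM in eye and 1431, 1439, 1278 and 1449 (DMSO) and 1278, 1456, 1571 and 1713 (IPP) FPKM in brain. Neighbours in this order were close: rpl6, rps2 and rps14 overlapped in their library ranges in each tissue. Others at or above 1000 FPKM in eye were rpl3, rps7, rpl7, rpl18, rps23, rpl7a, rpl11 and rpl19, with means from 1484 down to 1071 FPKM.

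Genes whose proteins leave the ribosome to bind Mdm2 differed in level. Rpl5 is encoded by rpl5a (ENSDARG00000020197, chromosome 2, 10687276 to 10703621, minus strand) and rpl5b (ENSDARG00000015862, chromosome 6, 29086594 to 29097393, plus strand). In eye rpl5a had 758, 797, 834 and 752 (DMSO) and 764, 662, 846 and 800.4 (IPP) FPKM and rpl5b had 282, 371, 307 and 281 (DMSO) and 340.2, 237, 306 and 310.0 (IPP) FPKM. In brain rpl5a had 593, 553, 502 and 629 (DMSO) and 559, 540.5, 669 and 770.4 (IPP) FPKM and rpl5b had 315, 260.2, 222 and 259 (DMSO) and 237, 229.5, 256 and 351 (IPP) FPKM. Every library held more rpl5a than rpl5b, by 1.88 to 2.80 times. Its partner rpl11 (ENSDARG00000043509, chromosome 19, 43780970 to 43786940, plus strand) had 1009, 1123, 1101 and 1063 (DMSO) and 1098, 905, 1214 and 1082 (IPP) FPKM in eye and 920.3, 912, 758 and 959.7 (DMSO) and 790.3, 887, 1044 and 1109 (IPP) FPKM in brain. Those were above the levels of rpl5a in each library, and the DMSO and IPP values overlapped for all of them.

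Other members with a known role of their own covered the middle of the range. The S6 kinase substrate rps6 had means of 862 FPKM in eye and 717 FPKM in brain. The tunnel exit gene rpl35 had 820.4 FPKM in eye and 765 FPKM in brain, and rpl23, of the face that meets the small subunit, 391 and 327 FPKM. Means were 1260.3 FPKM in eye and 1129.7 FPKM in brain for rps7, and 413 and 337 FPKM for rps3, at the message entry. The gene rps19, which is mutated in human Diamond-Blackfan anaemia, had 184 FPKM in eye and 155 FPKM in brain. For rpl10a the means were 443 and 368 FPKM, and for rpsa, named for the laminin receptor made from the same protein, 493 and 366 FPKM. The gene rpl38, which mouse embryos need for the patterning of the axial skeleton, was lower at 91.0 and 98.3 FPKM. Of rps27a, which encodes ubiquitin fused to a small subunit protein, the means were 82.4 and 69.1 FPKM. Outside the name rule, the ribosome components rack1 and faua had 1355 ± 105 and 1190.0 ± 49.5 FPKM in eye DMSO (SD, n = 4), and faub was listed at 0 in every library.

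At the low end of the class 7 genes had means under 10 FPKM in each tissue, with no gap to the genes above them, although most of the proteins they name are parts of every ribosome. The gene rpl32 (ENSDARG00000054818, chromosome 22, 31039091 to 31044066, plus strand) was listed at 0 in 6 eye libraries and all 8 brain libraries, and at 0.167 and 0.148 FPKM in eye IPP 1 and IPP 2. Of the pair named rpl26, ID ENSDARG00000102317 had 0 to 0.458 FPKM in eye and 0 to 0.693 FPKM in brain. The other, ENSDARG00000101794, had 2.11 to 2.78 FPKM in eye and 0.626 to 2.38 FPKM in brain, its gene model of 4684 bases overlaps the first on the same strand, and the reference names give its ID the symbol atp6v0e1. The gene rpl9 (ENSDARG00000037350, chromosome 1, 23269503 to 23274504, minus strand) had 1.04 to 1.81 FPKM in eye and 0.208 to 0.964 FPKM in brain, and overlaps rfc1 on the same strand, whose means were 5.36 FPKM in eye and 6.74 FPKM in brain. Of the genes named rpl37, ENSDARG00000034291 had means of 219.8 FPKM in eye and 207 FPKM in brain, while ENSDARG00000076360 had 1.17 and 1.91 FPKM, with a model of 6136 bases and the reference symbol COA1. Levels of rpl10 (ENSDARG00000025581, chromosome 23, 19712557 to 19715859, minus strand), whose protein joins the large subunit late, were 5.22 to 12.2 FPKM in eye and 3.64 to 9.16 FPKM in brain. The last of the 7 was rps19bp1, with 7.33 to 11.1 FPKM in eye and 6.83 to 10.9 FPKM in brain. Of the 20 genes under 100 FPKM in eye, 10 overlapped another protein-coding gene, compared with 22 of all 83. The share over all protein-coding genes was not computed. The part of overlapping models and shared reads in these low values was not tested.

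Between libraries most of the genes were steady. The coefficient of variation over the 8 libraries of a tissue had a median of 8.98% in eye and 12.1% in brain, and the highest library was under 1.5 times the lowest for 68 genes in eye and 51 in brain. Wide exceptions sat in the lower part of the range. The large subunit gene rpl21 had 15.6, 46.4, 24.2 and 17.0 (DMSO) and 21.2, 22.2, 15.5 and 48.6 (IPP) FPKM in eye and 35.0, 15.9, 16.6 and 15.7 (DMSO) and 9.53, 19.6, 8.81 and 32.3 (IPP) FPKM in brain. Libraries with high rpl21 were DMSO 2 and IPP 4 in eye and DMSO 1 and IPP 4 in brain, 1 or more in each group. The stalk base gene rpl12 had 30.8, 82.7, 34.5 and 43.9 (DMSO) and 28.5, 65.3, 33.1 and 98.7 (IPP) FPKM in eye, again high in DMSO 2 and IPP 4 and also in IPP 2, and 36.3, 28.1, 24.3 and 27.06 (DMSO) and 29.8, 34.4, 30.3 and 49.4 (IPP) FPKM in brain. The gene rpl36a had 83.0, 186, 203 and 98.3 (DMSO) and 81.6, 84.7, 215 and 118 (IPP) FPKM in eye, with DMSO 2, DMSO 3 and IPP 3 above the other 5 libraries, and 146, 96.4, 84.5 and 128 (DMSO) and 74.4, 163, 104 and 108 (IPP) FPKM in brain. In none of these did DMSO and IPP libraries separate. Intervals were wide for them: the 95% interval of the log2 change with IPP in eye was -0.77 to 1.09 for rpl12, -0.82 to 0.94 for rpl21 and -1.01 to 0.61 for rpl36a.

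Together the genes took a few percent of all assigned reads. Their share was 5.46% ± 0.161 (SD, n = 4) in eye DMSO, 5.48% ± 0.401 in eye IPP, 4.43% ± 0.276 in brain DMSO and 4.71% ± 0.481 in brain IPP (SD, n = 4 each). Eye libraries ran from 5.24% to 5.62% with DMSO and from 4.91% to 5.83% with IPP, so the DMSO range lay inside the IPP range. Brain libraries ran from 4.08% to 4.75% with DMSO and from 4.13% to 5.16% with IPP, which overlap. The exact binomial 95% interval of each share reached at most 0.0138 percentage points to either side, counting error only, far under the spread between libraries. Lens crystallins took 12.3% of eye DMSO reads and 11.1% of eye IPP reads, and 0.000884% and 0.000958% in brain. Per length, as a share of summed FPKM, ribosomal protein genes made up 8.82% ± 0.242 in eye DMSO, 8.86% ± 0.505 in eye IPP, 8.50% ± 0.395 in brain DMSO and 8.80% ± 0.667 in brain IPP (SD, n = 4 each). The ratio of summed FPKM of the small subunit genes to that of the large stayed between 0.688 and 0.709 in eye libraries and between 0.707 and 0.735 in brain libraries.

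In the eye, ribosomal protein genes were not detectably changed by IPP. Tested by limma on log2(FPKM + 0.5), 0 of 81 genes passed an adjusted p of 0.05 and 0 of 81 had an unadjusted p under 0.05. Over all 17096 genes tested, 0.00% passed the adjusted threshold, 11.0% had an unadjusted p under 0.05 (5.30% higher and 5.73% lower), and limma-voom on rebuilt reads also called 0. The 2 genes not tested were rpl32 and rpl26 (ENSDARG00000102317), whose means fell under the filter of 0.5 FPKM. Estimates of 26 genes lay above 0 and of 55 below, where 49.5% of all genes lay above 0. The median log2 change was -0.02, against -0.004 over all genes, and the range was -0.21 to 0.33. The smallest adjusted p was 0.524. No gene had all IPP libraries above or all below the DMSO libraries, where 2.22% and 3.54% of all genes did. Precision was high for the class: the median standard error was 0.10 against 0.18 over all genes, and the 95% interval stayed within 0.5 log2 units of 0 for 74 of 81 genes, compared with 40.4% of all genes. Counts by subunit were similar, with 15 higher and 31 lower (median -0.02) in the large subunit and 9 higher and 24 lower (median -0.03) in the small. With IPP 3 and IPP 4 left out these counts were 3 and 43 in the large subunit and 0 and 33 in the small. Then 13 of 81 genes had both remaining IPP libraries below every DMSO library (0 above), where 9.70% of all genes did (9.51% above). IPP 3 and IPP 4 were the eye IPP libraries highest in the class, so a fall of the estimates without them was fixed in advance.

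**Figure D2:**
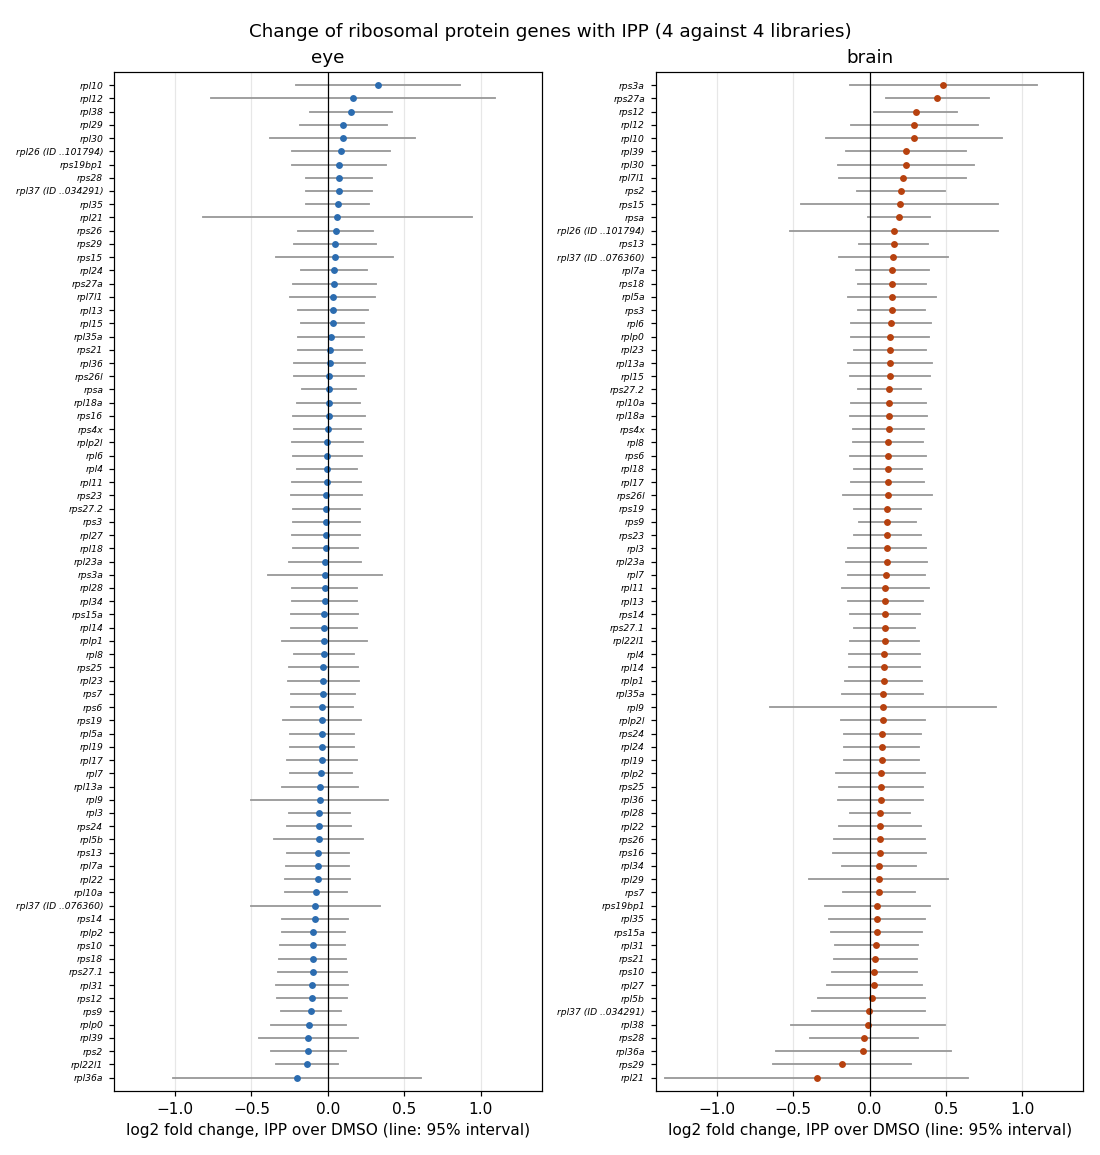
Log2 fold change of IPP over DMSO (points) with its 95% interval from limma (lines) for 76 of the 81 genes tested in eye (left) and brain (right), 4 against 4 libraries, sorted within each tissue. Eye estimates centre on a median of -0.02, brain estimates on 0.10. The intervals of rps27a and rps12 in brain are the pair that do not reach 0.

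Of the genes with the smallest p in eye, rpl10 had the highest estimate. Its levels were 5.62, 9.58, 7.77 and 5.22 (DMSO) and 12.2, 6.63, 10.4 and 6.81 (IPP) FPKM. DMSO 1 and DMSO 4 were lowest and IPP 1 and IPP 3 highest, and the groups overlapped between them. The log2 change was 0.33 (SE 0.24, unadjusted p = 0.203, adjusted p = 0.623 by limma). The gene rpl38 had 81.5, 87.6, 82.5 and 91.4 (DMSO) and 88.6, 76.7, 111 and 108 (IPP) FPKM. Its IPP 3 and IPP 4 values stood above all DMSO values and IPP 2 stood lowest of all, and the log2 change was 0.15 (SE 0.12, adjusted p = 0.661 by limma). For rps28 the DMSO libraries lay between 151 and 152 FPKM, while the IPP libraries read 161, 134, 184 and 163 FPKM, on both sides of them (log2 change 0.07, SE 0.10). Levels of rpl29 were 105 to 147 FPKM with DMSO and 118 to 158 FPKM with IPP (log2 change 0.10, SE 0.13). Without IPP 3 and IPP 4 the estimates of rpl38, rpl29 and rps28 fell below 0, at -0.06, -0.07 and -0.05.

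Among the lower estimates, the relative of rpl22, rpl22l1, had 156, 147, 163 and 150.1 (DMSO) and 138, 122, 160.2 and 142 (IPP) FPKM, with IPP 1, IPP 2 and IPP 4 below every DMSO library and IPP 3 among them (log2 change -0.14, SE 0.09). For rps9 the change was -0.11 (SE 0.09), from 132 to 153 FPKM with DMSO and from 118 to 149 FPKM with IPP. Neither passed the threshold. Their estimates were -0.24 and -0.19 without IPP 3 and IPP 4.

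The genes shifted together from library to library, and the count of 26 higher estimates moved with single eye libraries. Eye IPP 2 was the lowest of the 8 eye libraries for 66 of 81 genes, where 12.1% of all genes had their lowest value, with a median deviation of -0.23 log2 units from each gene's mean. Eye IPP 3 was the highest for 37 of 81, where 11.0% of all genes were highest. Eye IPP 2 also had the highest sums of liver and gut markers (278 FPKM, 78.4 to 239 elsewhere in eye) and of exocrine pancreas markers (144 FPKM, 25.5 to 122 elsewhere). The part of such RNA in the shift was not tested. Without IPP 2, 57 of 81 estimates lay above 0, and without IPP 3 and IPP 4, 4 of 81 did. Since IPP 2 had the lowest median of the 8 libraries, a rise of the estimates without it was fixed in advance. IPP 3 (0.13) and IPP 4 (0.06) had the highest medians of the eye IPP libraries, so the fall without them was fixed too. Leaving out eye DMSO 4 and IPP 4 gave 9 of 81, and the count of all genes called then rose from 0 to 40, none of them a ribosomal protein gene. Eye DMSO 4 had the lowest median of the DMSO libraries (-0.07), so this fall was fixed in advance as well. The pair was chosen with earlier results of these data known.

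**Figure D3:**
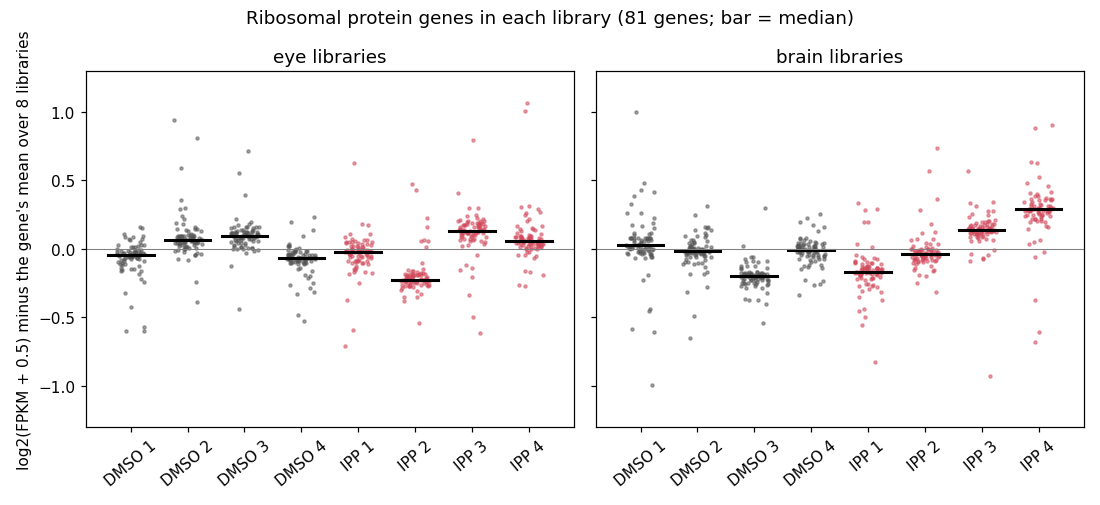
Each point is 1 of 81 ribosomal protein genes in 1 library, as its log2(FPKM + 0.5) minus the gene's mean over the 8 libraries of the tissue, with the median as a bar. Points of a library move as a block: the lowest median in eye is IPP 2 (-0.23) and the highest in brain is IPP 4 (0.29), and libraries of both groups lie on either side of 0.

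In the brain most estimates lay slightly above 0, and again no gene passed. With limma, 0 of 81 genes (and 0.00% of all 17533 genes tested) had an adjusted p under 0.05, and limma-voom on rebuilt reads also called 0. At an unadjusted p under 0.05 stood 2 of 81, both higher, where 1.56% of all genes were higher at that level, 1.36% lower and 2.92% either. Estimates of 74 genes lay above 0 and of 7 below, where 53.1% of all genes lay above 0, with a median log2 change of 0.10 against 0.01 over all genes and a range of -0.35 to 0.48. The smallest adjusted p of the class was 1.0. No gene separated the groups, where 0.958% of all genes had every IPP library above every DMSO library and 1.10% the reverse. The 95% interval stayed within 0.5 log2 units of 0 for 64 of 81 genes, compared with 42.1% of all genes. In the large subunit 42 were higher and 4 lower (median 0.10), and in the small subunit 30 and 3 (median 0.12). Leaving out IPP 3 and IPP 4 gave 8 and 38 in the large and 11 and 22 in the small, and without DMSO 1 and IPP 4 they were 40 and 6, and 29 and 4. In the first case 2 genes had the remaining IPP libraries above all of DMSO and 1 below (7.62% and 7.47% of all genes), and in the second 1 and 0 (3.56% and 3.18%).

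The size of this tilt moved with the libraries left out. Brain IPP 4 was the highest of 8 libraries for 65 of 81 genes, where 25.5% of all genes were highest, and its median deviation was 0.29 log2 units. Brain IPP 3 followed with 0.14. At the low end, brain DMSO 3 was the lowest library for 47 genes and brain IPP 1 for 23, where 11.5% and 11.0% of all genes were lowest. Their median deviations were -0.20 and -0.17, so that libraries of both groups were low. Since IPP 3 and IPP 4 had the highest medians of the 8 libraries, a fall of the estimates without them was fixed in advance. Without both, 20 of 81 estimates lay above 0 and the median was -0.05. Without IPP 4 alone the values were 55 of 81 and 0.03. Leaving out brain DMSO 1 and IPP 4 gave 71 of 81 and 0.05, and quantile normalization gave 57 of 81 and 0.03.

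Markers of other organs were high in brain IPP 4, while brain IPP 3 was lowest in liver and gut and in pancreas markers and high in skin markers. Sums of the 29 liver and gut markers ran from 20.0 to 6357 FPKM with DMSO and from 11.3 to 10414 FPKM with IPP, with the lowest sum of all 8 in IPP 3 and the highest in IPP 4, where none of the 29 was listed at 0. Sums of 15 exocrine pancreas markers ran from 44.0 to 612 FPKM with DMSO and from 12.3 to 9375 FPKM with IPP, again lowest in IPP 3 and highest in IPP 4, with none at 0 there. Sums of 29 skin markers were 2271 FPKM in DMSO 4, 2354 FPKM in IPP 3 and 2288 FPKM in IPP 4, and 52.1 to 575 FPKM in the other brain libraries. Brain DMSO 1, second in liver and gut markers, had a median deviation of ribosomal protein genes of 0.02, and brain DMSO 4, high in skin markers, of -0.01. The part of these markers in the brain estimates was not tested.

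**Figure D4:**
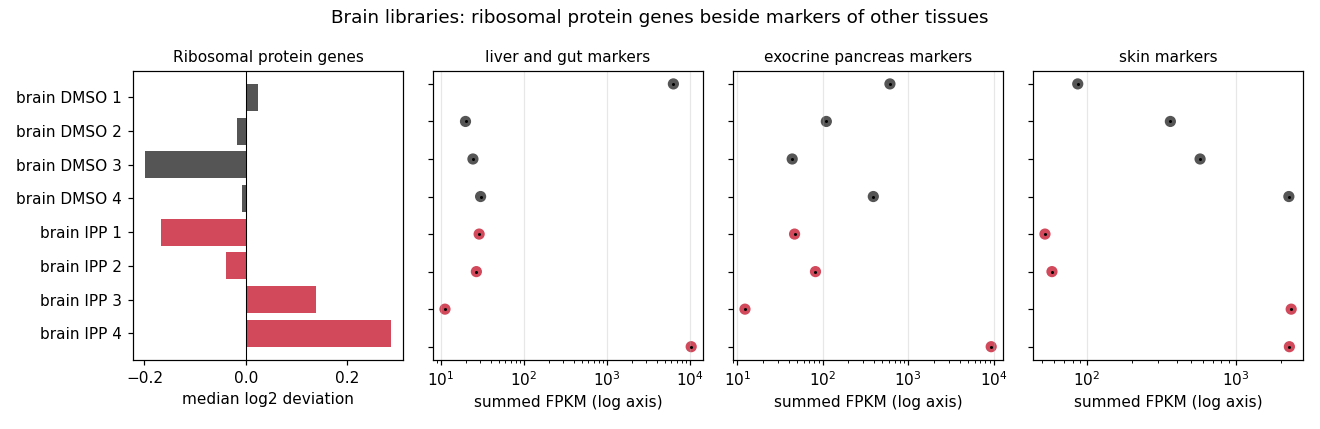
For each of the 8 brain libraries (DMSO grey, IPP red), the left panel gives the median log2 deviation of the 81 ribosomal protein genes and the other panels the summed FPKM of liver and gut, exocrine pancreas and skin markers on log axes. Brain IPP 4 is highest in the left panel (0.29), in liver and gut (10414 FPKM) and in pancreas (9375 FPKM).

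The smallest p in brain belonged to rps27a (ENSDARG00000032725, chromosome 6, 6270686 to 6273519, plus strand). Its levels were 49.3, 54.3, 64.3 and 65.6 (DMSO) and 82.5, 60.3, 83.9 and 93.0 (IPP) FPKM. Of the IPP libraries 3 stood above every DMSO library and IPP 2 stood among them. The log2 change was 0.44 (SE 0.15, 95% interval 0.10 to 0.78), with an unadjusted p of 0.0163 and an adjusted p of 1.0 by limma. It was 0.29 without DMSO 1 and IPP 4 and 0.28 without IPP 3 and IPP 4. In eye the same gene had 72.0, 77.8, 95.4 and 79.3 (DMSO) and 73.4, 85.4, 75.4 and 100.4 (IPP) FPKM, overlapping (log2 change 0.04, SE 0.12).

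Second was rps12 (ENSDARG00000036875, chromosome 23, 31431956 to 31435922, plus strand), of the beak of the small subunit. Its brain levels were 35.7, 48.5, 45.8 and 46.2 (DMSO) and 46.2, 59.24, 53.6 and 58.0 (IPP) FPKM. DMSO 1 was lowest, and 3 IPP libraries stood above every DMSO library with IPP 1 among them. The log2 change was 0.30 (SE 0.12, unadjusted p = 0.0326, adjusted p = 1.0 by limma), 0.17 without DMSO 1 and IPP 4 and 0.26 without IPP 3 and IPP 4. The gene overlaps zgc:153284 on the opposite strand, whose mean was 0.332 FPKM in brain.

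The other genes named for their p in brain did not reach an unadjusted p under 0.05 by limma. In brain rpsa had 348, 349, 311 and 358 (DMSO) and 347, 383, 387 and 448 (IPP) FPKM (log2 change 0.19, SE 0.09), with 3 IPP libraries above every DMSO library. For rps3a, a small subunit gene, the levels were 8.65, 22.1, 14.1 and 18.3 (DMSO) and 21.8, 16.4, 21.2 and 25.7 (IPP) FPKM (log2 change 0.48, SE 0.27), and the lowest, DMSO 1, stood apart from the rest. On the lower side rps29 had 463, 439.6, 348 and 339.9 (DMSO) and 261, 297, 390.4 and 483 (IPP) FPKM (log2 change -0.18, SE 0.20), with IPP 4 the highest and IPP 1 the lowest of all 8. The estimate of rpl21 was -0.35 (SE 0.44), the most negative of the class and the least precise. That of rps28 was -0.04 (SE 0.15), and it changed sign when single libraries were left out. The estimates of rpsa, rps3a, rps29 and rpl21 were 0.10, 0.33, -0.50 and -0.50 without IPP 3 and IPP 4, and without DMSO 1 and IPP 4 they were 0.13, 0.14, -0.26 and -0.42.

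An interaction contrast in limma, eye minus brain over 15856 genes, asked whether the change with IPP differed between tissues. Of 81 genes 0 passed the adjusted threshold (0.00% of all genes, and 0 by limma-voom), and 1 had an unadjusted p under 0.05, where 4.04% of all genes did (1.43% above 0 and 2.60% below). That gene was rps12, with a difference of -0.41 (SE 0.16, unadjusted p = 0.0217, adjusted p = 1.0 by limma): its eye levels were 59.7, 72.3, 60.7 and 61.9 (DMSO) and 54.4, 53.7, 68.7 and 60.2 (IPP) FPKM, a change of -0.10 (SE 0.10). The difference was -0.48 without IPP 3 and IPP 4 of both tissues and -0.28 without brain DMSO 1 and IPP 4. Of the class 9 differences lay above 0 and 72 below, with a median of -0.14, where 45.0% of all genes lay above 0 and the median was -0.03. These counts carry the library shifts described for each tissue. Without brain IPP 4, 21 lay above 0, without IPP 3 and IPP 4 of both tissues 15, without brain DMSO 1 and IPP 4 12, and with quantile normalization 33.

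Related gene pairs allow a comparison of the tissues that the scaling of the tables cannot reach, since a ratio within a library cancels it. Of 6 such pairs, chosen after their levels were seen, 3 had ratios in eye DMSO that did not overlap those in brain DMSO. How often ratios of other gene pairs do so was not computed, so 3 of 6 cannot be called unusual. As shares of the class, ranges of single genes did not overlap for 17 of 80 higher in eye and 18 higher in brain. The exact two-sided permutation test of 4 against 4 libraries gave p = 0.0286 for each, the smallest that 70 arrangements allow, and 0.171 after adjustment over 18 comparisons, so none passed. The largest of these differences was that of rps26 over its relative rps26l, at 1.22 ± 0.0540 in eye and 1.66 ± 0.0833 in brain (SD, n = 4). That of rplp2 to rplp2l was 0.920 ± 0.0267 in eye and 1.11 ± 0.0508 in brain, so rplp2l was the more abundant copy in eye and rplp2 in brain. For rps27.1 over rps27.2 the ratios were 3.34 ± 0.111 and 3.05 ± 0.102. The ratios of rpl5a to rpl5b (2.56 ± 0.274 and 2.17 ± 0.232), rpl22 to rpl22l1 (0.534 ± 0.0383 and 0.546 ± 0.0354) and rpl7 to rpl7l1 (62.8 ± 4.78 and 55.7 ± 8.58) overlapped between eye and brain DMSO.

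**Figure D5:**
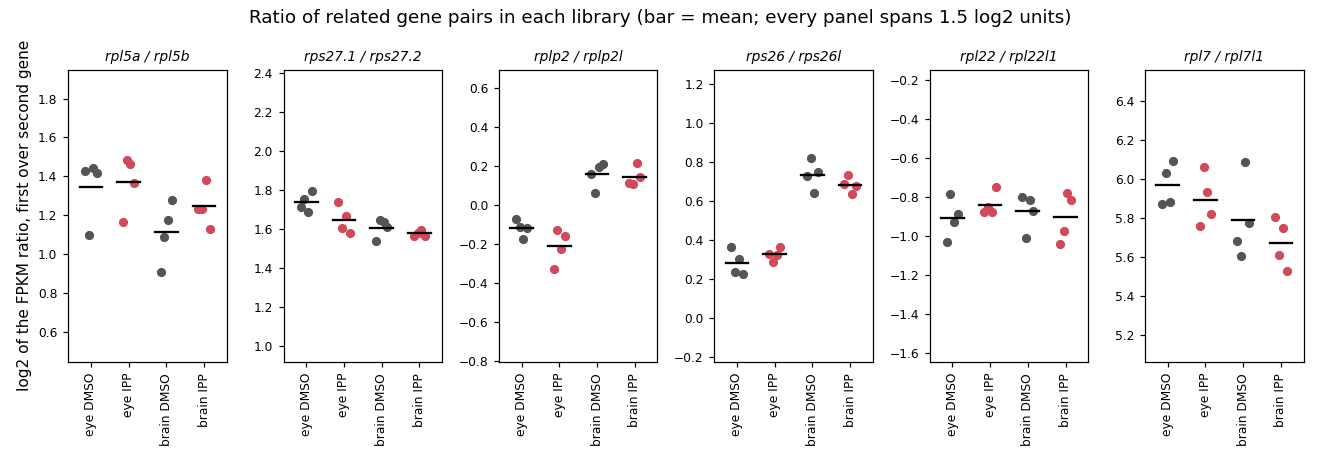
Log2 of the FPKM ratio of each of 6 related gene pairs in every library, by tissue and treatment, with the group mean as a bar; each panel spans 1.5 log2 units. Eye and brain DMSO libraries separate for rps27.1 over rps27.2, rplp2 over rplp2l and rps26 over rps26l, and DMSO and IPP libraries overlap in every panel and tissue.

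For none of the 6 ratios did the IPP libraries separate from the DMSO libraries in either tissue. The smallest p of these 12 comparisons was 0.114 (exact permutation, two-sided, 0.343 adjusted over 18), for rps27.1 over rps27.2 and for rplp2 over rplp2l in eye.

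The make-up of the class was compared the same way, as each gene's percent of the summed FPKM of all 83 in DMSO libraries, as a description. The comparison kept 80 genes, those averaging 1 FPKM or more in each tissue. For 77 of them the eye and brain means were within 0.5 log2 units. Left out for low levels were rpl32, the rpl26 gene ENSDARG00000102317 and rpl9, whose means were 1.46 FPKM in eye and 0.675 FPKM in brain. Library ranges did not overlap for 17 of the 80 genes higher in eye and 18 higher in brain. Of all 13661 genes of at least 1 FPKM in both tissues, set against the same sum, 8.73% had a higher range in eye and 54.5% in brain. The percents of the 83 add up to the whole in each tissue, so gains and losses offset each other within the class. Those of other genes are not bound this way, so the shares over all genes are not a like-for-like background. Genes of the class higher in brain included ENSDARG00000076360 (-0.84, log2 of eye over brain), listed as rpl37 but with the reference symbol COA1. Its means were only 1.17 FPKM in eye and 1.91 FPKM in brain. Also higher in brain were rpl36 at 0.570% ± 0.0262 of the sum in eye and 0.726% ± 0.0203 in brain, rps26 at 0.923% ± 0.0207 and 1.15% ± 0.0765, and rps21 at 0.988% ± 0.0234 and 1.22% ± 0.0750 (SD, n = 4). Those higher in eye included ENSDARG00000101794 (0.99), listed as rpl26 but with the reference symbol atp6v0e1. Its means were only 2.43 FPKM in eye and 1.10 FPKM in brain. Also higher in eye were rpsa at 1.12% ± 0.0395 in eye and 0.955% ± 0.0245 in brain, and rps2 at 3.95% ± 0.175 and 3.59% ± 0.0727.

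Other genes of the pathway, from lists of known components, were also not called in any comparison by limma. Of all genes tested, 49.5% of estimates lay above 0 in eye and 53.1% in brain. The ribosome components outside the name rule that were tested (rack1 and faua) had 0 of 2 estimates above 0 in eye and 2 of 2 in brain, with medians of -0.08 and 0.12. The counts were 0 of 2 and 1 of 2 without IPP 3 and IPP 4, and 2 of 2 in brain without DMSO 1 and IPP 4. Of ribosome biogenesis genes, which process ribosomal RNA and assemble subunits, 50 of 109 lay above 0 in eye (median -0.02) and 85 of 110 in brain (median 0.07). These became 38 and 55 without IPP 3 and IPP 4, and 56 in brain without DMSO 1 and IPP 4. In eye mdn1, an ATPase that remodels the large subunit precursor, had 3.21 ± 0.520 FPKM with DMSO and 4.33 ± 0.634 with IPP (SD, n = 4; adjusted p = 0.418 by limma). The pseudouridine synthase gene dkc1 had 37.6 ± 2.47 and 32.4 ± 2.44 FPKM (adjusted p = 0.423 by limma). Initiation factors had 13 of 48 estimates above 0 in eye (median -0.05) and 32 of 47 in brain (median 0.04), and 8 and 23 without IPP 3 and IPP 4 (30 in brain without DMSO 1 and IPP 4). Elongation factors had 4 of 14 above 0 in eye (median -0.04) and 9 of 15 in brain (median 0.10), and 4 and 6 without IPP 3 and IPP 4 (10 in brain without DMSO 1 and IPP 4). The sums of elongation factors were highest in brain IPP 4 (5670 FPKM, 4145 to 4877 in the other brain libraries), the library where ribosomal protein genes were highest too. In eye these sums were highest in DMSO 3 (6124 FPKM) and lowest in IPP 1 (4281 FPKM). Ribosomal protein genes in eye were instead highest in IPP 3 and lowest in IPP 2, where the sums were 4645 and 4686 FPKM. By mean log2 deviation, which weighs genes alike, elongation factors were lowest in eye DMSO 4 (-0.081) with IPP 2 next (-0.079). Eye IPP 2 was lowest by this measure for rack1 with faua (-0.20), ribosome biogenesis (-0.08) and nascent chain messages (-0.11). Initiation factors were lowest in DMSO 4 (-0.13, IPP 2 at -0.04), and the TOR list in IPP 1 (-0.10, IPP 2 at -0.03).

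Regulators were likewise uncalled. In the list of the TOR pathway and regulators of 5' oligopyrimidine messages 18 of 31 estimates lay above 0 in each tissue, with a median of 0.05 in both; without IPP 3 and IPP 4 it was 14 of 31 in each (medians -0.05 and -0.03), and without brain DMSO 1 and IPP 4 19 of 31 in brain. In eye rheb, which activates TOR complex 1, had 33.5 ± 6.90 FPKM with DMSO and 23.0 ± 1.91 with IPP, and mtor itself 3.41 ± 0.875 and 4.76 ± 0.476 FPKM (SD, n = 4; adjusted p = 0.303 and 0.406 by limma). Other messages of nascent chain factors and of this 5' type had 1 of 9 above 0 in eye (median -0.06) and 4 of 9 in brain (median -0.01), and 1 and 2 without IPP 3 and IPP 4 (6 in brain without DMSO 1 and IPP 4). Of p53 targets, 8 of 12 lay above 0 in eye (median 0.05) and 11 of 13 in brain (median 0.20). IPP 3 and IPP 4 were singled out by the sums of this same list, so a fall of both counts without them was fixed in advance. Without them 3 of 12 lay above 0 in eye (median -0.18) and 4 of 13 in brain (median -0.07). Without brain DMSO 1 and IPP 4 it was 9 of 13 in brain (median 0.07). The mean log2 deviation of the list was -0.18, -0.23, 0.20 and 0.29 in eye IPP 1 to 4, with IPP 1 and IPP 2 below every DMSO library (-0.09 to 0.03), and -0.27, -0.15, 0.27 and 0.54 in brain IPP 1 to 4, against -0.15 to -0.05 with DMSO. Among them mdm2 had 2.42 ± 0.352 and 1.82 ± 0.0473 FPKM in eye (adjusted p = 0.458 by limma), and cdkn1a, a brake on the cell cycle, 32.3 ± 3.98 and 41.8 ± 13.3 FPKM (adjusted p = 0.555 by limma).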

How the data were processed

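For eye and for brain the authors deposited a table of FPKM, with length, symbol, ID, coordinates and biotype of every gene. The submitters' processing notes name HISAT2 2.0.5 and featureCounts 1.5.0-p3 without their roles; build and annotation are not named. Multiplied by gene length, 100% of the FPKM of each library were multiples of the value of 1 read, to within 0.01 read, so whole reads were rebuilt (9.62 M to 16.3 M per library). Binomial intervals cover counting error only.

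Tests used limma 3.58.1 (lmFit and eBayes with trend; R 4.3.3) on log2(FPKM + 0.5) of the genes that averaged 0.5 FPKM or more in a tissue (17096 in eye, 17533 in brain, 15856 in both), two-sided and without covariates, with Benjamini-Hochberg adjustment over all genes tested, threshold 0.05. The fits were tested on simulated data. A fold change on this scale understates that of low genes. Ratios of gene pairs were compared by exact permutation (SciPy 1.17.1, Python 3.11.15). 

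Members, lists, pairs and left-out libraries were chosen with earlier results of these data known, and the list counts without libraries were added after seeing the data. Named members are, per tissue, the 4 per direction with the smallest p among those of at least 1 FPKM, the 4 highest and 4 lowest, a list of members by role, and both copies of related pairs; a few genes that this rule or the lists would name are not reported here and are not drawn by name, although class counts include the members. Alternatives were other pseudocounts, filters and scalings, limma-voom, robust eBayes, protein-coding genes only, a replicate block and left-out libraries. Same-numbered DMSO and IPP libraries correlated at -0.09 to 0.04 in eye and -0.09 to 0.33 in brain over deviations from group means, so the numbers were not taken to pair them.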

Additional observations from a re-analysis of the deposited data

Results flagged for a closer look

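Of 172 sets of 4 libraries examined for 42 named genes, 9 held a library whose gap to the others exceeded Dixon's 95% limit, and chance alone would mark about 5% of sets. In eye IPP 2, rpl6 read 1476 FPKM against 1846 to 1867 in the other 3 libraries, rpl7l1 read 15.99 against 21.3 to 22.3, and rpsa read 445 against 505 to 514. In brain DMSO 3, rpl22 read 66.2 FPKM against 76.8 to 77.1, rpl7l1 read 13.3 against 20.0 to 20.5, rps14 read 1278 against 1431 to 1449, and rps3 read 287 against 329 to 331. Eye IPP 2 and brain DMSO 3 are the libraries in which most ribosomal protein genes were lowest for their tissue. In brain DMSO 1, rpl21 read 35.0 FPKM against 15.7 to 16.6, and in brain IPP 2 the rpl26 gene ENSDARG00000102317 read 0.693 FPKM against 0.112 to 0.206.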

How the results depend on the processing

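No ribosomal protein gene passed the threshold under any alternative run. The replicate block left the counts of calls at 0. Median log2 changes of the class stayed at -0.02 in eye, 0.10 in brain and -0.14 for eye minus brain. They could not move, since a block leaves the estimates of a balanced layout unchanged. Within a tissue the block joined same-numbered DMSO and IPP libraries, although the numbers were not taken to pair them. For eye minus brain it joined same-numbered eye and brain libraries, which correlated at 0.21 to 0.38 with IPP and at -0.14 to 0.44 with DMSO. Genes called in eye ran from 0 to 3 with single libraries left out (3 without DMSO 4, 1 without IPP 1) and were 40 without DMSO 4 and IPP 4. Estimates above 0, of 81 genes in eye, were 46 with quantile normalization and 51 with totals of rebuilt reads without ribosomal protein genes. Those totals also replaced the library totals of the authors, and the part of each change was not tested. Estimates above 0 in eye were 9 without DMSO 4 and IPP 4, 4 without IPP 3 and IPP 4, and 15 to 57 with single libraries left out. In brain they were 20 (median -0.0485) without IPP 3 and IPP 4, and 55 to 78 (medians 0.03 to 0.17) with single libraries left out. For eye minus brain they were 33 with quantile normalization, 15 without IPP 3 and IPP 4, and 4 to 21 with single libraries left out. The cause was not tested.

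Some estimates changed sign. Without IPP 3 and IPP 4, eye values were -0.0558 for rpl38, -0.0656 for rpl29 and -0.0474 for rps28. In brain rps28 was -0.147 to 0.0816 with single libraries left out. With single libraries left out, the log2 change with IPP of rpl5a over rpl5b in eye was -0.0581 to 0.0919, and in brain that of rplp2 over rplp2l was -0.0439 to 0.00578 and of rpl22 over rpl22l1 -0.0754 to 0.0161. The eye minus brain DMSO difference of rpl22 over rpl22l1 was -0.0790 to 0.00808. The share of the class was 8.82%, 8.86%, 8.50% and 8.80% of summed FPKM in eye DMSO, eye IPP, brain DMSO and brain IPP. Without lens crystallins it was 6.23% of eye DMSO and 6.16% of eye IPP reads, and without mitochondrial genome genes 5.69% of eye DMSO reads.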

Other observations

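Mitochondrial ribosomal protein genes, which build the separate ribosome of mitochondria and share no member with the cytosolic class, were tested in the same fits. In eye 14 of 68 estimates lay above 0 and 54 below (median -0.10), where 49.5% of all genes lay above 0. An unadjusted p under 0.05 by limma was reached by 6 of the lower ones, where 5.73% of all genes were lower at that level. In eye 0 were called. The large subunit gene mrpl15 had 35.9 ± 1.54 FPKM with DMSO and 29.6 ± 1.46 with IPP in eye (SD, n = 4; log2 change -0.27, SE 0.08, adjusted p = 0.314 by limma). In brain 46 of 68 estimates lay above 0 (median 0.06), where 53.1% of all genes did, and 0 were called. The counts were 14 in eye and 53 in brain without IPP 3 and IPP 4, and without brain DMSO 1 and IPP 4 it was 55 in brain. Sums of these genes were 908 to 1027 FPKM in eye DMSO libraries and 864 to 923 FPKM in eye IPP libraries, which overlap.

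Markers of cell types gave these values in the same tests, with 0 calls in each list by limma. Of all genes tested, 49.5% lay above 0 in eye and 53.1% in brain. At an unadjusted p under 0.05 by limma, 5.30% of all genes were higher in eye and 5.73% lower. Genes of proliferating cells had 25 of 29 estimates above 0 in eye (median 0.12, 4 of them at an unadjusted p under 0.05) and 18 of 29 in brain (median 0.05). Genes of mature neurons had 6 of 28 above 0 in eye (median -0.26, 14 of the lower ones at an unadjusted p under 0.05) and 3 of 29 in brain (median -0.09). Skin genes had 22 of 26 above 0 in eye (median 0.28), blood genes 10 of 13 (median 0.26), liver and gut genes 13 of 16 (median 0.83), exocrine pancreas genes 7 of 9 (median 0.19) and skeletal muscle genes 5 of 20 (median -0.35). Of these eye genes, 4 skin, 3 blood and 5 liver and gut genes were higher at an unadjusted p under 0.05 by limma. At that level 1 blood and 4 muscle genes were lower, and 0 pancreas genes reached it. In brain skin genes had 17 of 26 (median 0.21), blood genes 11 of 13 (median 0.43) and liver and gut genes 18 of 27 (median 0.18). Exocrine pancreas genes had 5 of 13 there (median -0.06) and skeletal muscle genes 10 of 22 (median -0.001). At an unadjusted p under 0.05 by limma, 4 blood genes and 1 gene of mature neurons were higher in brain, where 1.56% of all genes were. The skin, liver and gut, pancreas, muscle and proliferating cell lists had 0 at that level in brain, higher or lower. Without IPP 3 and IPP 4, 0 of 26 skin, 0 of 22 muscle, 0 of 13 pancreas and 3 of 27 liver and gut genes lay above 0 in brain, and 19 of 29 genes of mature neurons did. Without brain DMSO 1 and IPP 4 these were 2, 0, 0, 7 and 15. In eye without IPP 3 and IPP 4 they were 23 of 26, 3 of 20, 8 of 9, 12 of 16 and 7 of 28. Without IPP 3 and IPP 4, proliferating cells had 25 of 29 above 0 in eye and 23 of 29 in brain. Blood genes then had 7 of 13 in eye and 10 of 13 in brain. Without brain DMSO 1 and IPP 4, the brain counts were 22 of 29 for proliferating cells and 11 of 13 for blood genes. The part of these lists in the values of the ribosomal protein genes was not tested.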
